A study of Mus musculus with 17 samples.

Results

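Cthrc1 stromal cells of the mouse skin were taken as cells with collagen I transcripts and at least 1 molecule of Cthrc1, and without transcripts of the leukocyte gene Ptprc, the endothelial gene Pecam1 or the fibroblast gene Pi16. The measure was the unique molecular identifier (UMI), which counts captured RNA molecules per gene and cell barcode. A cell needed at least 200 detected genes, at most 20% of its UMIs from mitochondrial (mt-) genes, at least 10 UMIs of Col1a1 and Col1a2 together, 0 UMIs of Ptprc, Pecam1 and Pi16, and at least 1 UMI of Cthrc1. The cells were thus selected on their own measured UMIs of these 6 genes. This rule found 778 cells, among 107534 barcodes in the 17 libraries of the series, 30085 skin cells past the filter on genes and mitochondrial UMIs, and 2632 skin stromal cells, which are the cells that met the same collagen, Ptprc and Pecam1 limits whatever their Cthrc1 and Pi16. The other stromal cells were 525 with Pi16 and no Cthrc1, called Pi16 stromal cells, 179 with both genes and 1150 with neither.

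All skin libraries came from mice of 8 weeks that carried PDGFRb-Cre and the Z/EG reporter, so that cells with a history of activity of the Pdgfrb promoter carry GFP, and the GFP+ cells were sorted. Mice were SARAWT, without the transgene, or SARATg, in which a human SARA (ZFYVE9) cDNA stands behind a CAG promoter and a lox-stop-lox cassette at Rosa26 and is switched on by the same Cre. They were given PBS under the skin, or bleomycin at 20 mg/kg on 3 days a week for 2 weeks per the labels. The methods of the study give daily injections instead, and which schedule was used is not settled here. There were 3 libraries labelled SARAWT PBS, 3 labelled SARAWT bleomycin, 1 SARATg PBS library and 1 SARATg bleomycin library. The Cre driver marks any cell in which the promoter was once active, embryonic cells included. The labels do not say how many mice stand behind a library, and the p-values below measure only the spread between libraries. The SARATg libraries have no replicates.

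Cthrc1 (ENSMUSG00000054196, chromosome 15, 39076932 to 39087121, plus strand of GRCm38) encodes collagen triple helix repeat containing 1, a secreted glycoprotein made by activated fibroblasts of wounds and fibrotic tissue. Pi16 marks fibroblasts around vessels and in fascia, which are held to be a less specialised state. SARA was first described as an anchor of SMAD2 and SMAD3 at the TGF-beta receptor on early endosomes. The study's authors state that later work, theirs included, found it dispensable for TGF-beta signalling. Bleomycin given repeatedly under the skin is a standard model of skin fibrosis in scleroderma.

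Several measured features of the libraries bear on every value below. Mouse Zfyve9 in all kept cells was at 25.9, 11.9 and 620 CPM, the usual depth-scaled UMI count, in the libraries labelled SARAWT PBS 1, 2 and 3, at 7.71 to 9.38 CPM in those labelled SARAWT bleomycin, and at 314 and 224 CPM in the SARATg PBS and bleomycin libraries. A human ZFYVE9 entry, which only the longer of 2 gene lists holds, was at 838 and 187 CPM in the libraries labelled SARAWT PBS 1 and 2 and at 87.4 and 112 CPM in SARAWT bleomycin 1 and 2. By their labels none of these 4 libraries carries the transgene, and why the entry was detected in each was not tested. The values of the libraries labelled SARAWT PBS 1 and PBS 3 go against their labels, so the PBS group is called by its labels throughout, and every direction against PBS rests on them. In the 4 libraries of the longer list between 7.38% and 55.5% of barcodes also occurred in another skin library, against 0.594% to 0.824% in the other 4. Among Cthrc1 stromal cells the shared barcodes were 20 of 51, 11 of 11 and 0 of 65 with the SARAWT PBS 1 to 3 labels, 41 of 72, 25 of 43 and 1 of 92 in SARAWT bleomycin 1 to 3, 2 of 202 in SARATg PBS and 3 of 242 in SARATg bleomycin. Only 3 of the 11 shared barcodes in SARAWT PBS 2 had their most UMIs in that library. The tests below take the libraries as independent, which the shared barcodes put in doubt, for SARAWT PBS 2 above all. Libraries held 3355217 to 69765525 UMIs in all, and their Cthrc1 stromal cells 967711 to 8985416, apart from the 41420 UMIs of the 11 cells in SARAWT PBS 2.

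A cell with more UMIs has more chances to show Cthrc1, and the chosen cells were deeper than stromal cells with neither gene in every library. The median Cthrc1 stromal cell held 16134 to 35900 UMIs in 7 libraries and 1084 UMIs in SARAWT PBS 2, and the median stromal cell with neither gene held 805 to 14248 UMIs. Of the 778 cells, 223 held exactly 1 Cthrc1 UMI (median 18297 UMIs per cell) and 555 held 2 or more (median 29179 UMIs). At the other limits, 14 cells inside had 10 to 12 collagen I UMIs, where 13 cells with 7 to 9 stood just outside, and 61 cells missed the rule by a single Pi16 UMI, 44 by a single Ptprc UMI and 109 by a single Pecam1 UMI. Cells that should lack Cthrc1 rarely showed it: 0% to 2.54% of Ptprc-positive cells per library had one (medians of 4632 to 12494 UMIs), against 15.7% to 63.5% of stromal cells (2240.5 to 27213 UMIs). In SARAWT PBS 2 the Ptprc-positive count was 0 of 281 cells.

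The label of the cells was then checked against markers. Pdgfra, a receptor of PDGF that marks most dermal fibroblasts and was not used by the rule, was detected in 80.4%, 36.4% and 83.1% of Cthrc1 stromal cells of the libraries labelled SARAWT PBS 1 to 3 and in 38.9%, 37.2% and 10.9% of those of SARAWT bleomycin 1 to 3. It was detected in 85.6% of these cells in SARATg PBS and 66.9% in SARATg bleomycin. Postn, which encodes the matrix protein periostin, was detected in 63.6% to 93.5% of the cells of every library. The defining markers of endothelium were almost absent, with 8 genes summing to 0 to 28.8 CPM, and 10 leukocyte genes summed to 55.3 to 151 CPM in 7 libraries and to 773 CPM in SARAWT PBS 2. Of the pericyte genes, Higd1b was at 0 in every library, and the list of 10 mural genes summed to 99.2 to 217 CPM in the libraries labelled SARAWT PBS and to 498 to 696 CPM in those labelled SARAWT bleomycin. Leaving out the cells with Schwann or muscle genes described next, the mural sums were 195, 149 and 63.9 CPM against 98.7, 164 and 135 CPM, with overlap, and the bleomycin cells with Schwann genes held 874 to 1189 CPM. A further group of cells carried Schwann cell genes and mostly lacked Pdgfra, while 8 fibroblast genes outside the rule (Pdgfra, Dcn, Lum, Col3a1, Pdpn, Thy1, Postn and Fbn1) summed to 6793, 8982, 10111 and 8400 CPM in its cells in SARAWT bleomycin 1 to 3 and SARATg bleomycin. In the cells of the same libraries with neither Schwann nor muscle genes at the limit set next, that list summed to 9460, 14687, 15243 and 11356 CPM. All 8 genes had a UMI there in each of these libraries. In the cells with Schwann genes, Pdgfra, Lum, Pdpn and Thy1 were at 0 in SARAWT bleomycin 2 (9 cells). Pdgfra and Pdpn were at 0 in SARAWT bleomycin 3 (60 cells), and all 8 genes had a UMI in SARAWT bleomycin 1 and SARATg bleomycin.

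Cells with UMIs of at least 3 of 8 Schwann cell genes (among them Sox10, Mbp, Cdh19, Cnp, Kcna1 and Sox2, which belong to the glia of peripheral nerves) made up 158 of the 778 cells, and 43 more had at least 3 of 8 skeletal muscle genes. The Schwann-marker cells were 0 of 51, 1 of 11 and 4 of 65 cells with the SARAWT PBS 1 to 3 labels. In SARAWT bleomycin 1 to 3 they were 33 of 72, 9 of 43 and 60 of 92 cells, so that they made up 45.8%, 20.9% and 65.2% of the Cthrc1 stromal cells there. SARATg mice had 2 of 202 with PBS and 49 of 242 with bleomycin (20.2%). In each treated library the Schwann-marker share was above all libraries given PBS. Only 4 of the 158 had a Pdgfra UMI. Predicted doublets were 10 of the 158 (6 of them among the 49 of SARATg bleomycin), against 3 of the 43 muscle-marker cells and 15 of the other 577. The muscle-marker cells followed with 0, 0 and 1 cells labelled SARAWT PBS, 7, 3 and 12 cells labelled SARAWT bleomycin, 5 cells in SARATg PBS and 15 in SARATg bleomycin.

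Schwann-marker cells with collagen I were found in every library, but how many of them carried Cthrc1 without Pi16 differed. They were 0 of 16, 1 of 3 and 4 of 25 with the SARAWT PBS 1 to 3 labels, and 33 of 64, 9 of 18 and 60 of 131 in SARAWT bleomycin 1 to 3. In SARATg mice they were 2 of 30 with PBS and 49 of 80 with bleomycin. Because these cells move with the treatment, the shares, the comparison of SARAWT bleomycin with PBS and the count of genes of the interaction below were also computed without the Schwann- and muscle-marker cells, an alternative chosen after the data had been seen. This leaves 577 cells, called the remaining cells, with 51, 10 and 60 with the SARAWT PBS 1 to 3 labels, 32, 31 and 20 in SARAWT bleomycin 1 to 3, 195 in SARATg PBS and 178 in SARATg bleomycin. Pdgfra was detected in 475 of the 577, and in 80.4%, 40.0% and 88.3%, 81.2%, 51.6% and 45.0%, 85.6% and 89.3% of them in the same order of libraries. Their Schwann genes summed to 18.1 to 60.7 CPM per library, a sum that the limit of 3 Schwann genes itself keeps low.

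Before depth and marker content were considered, Cthrc1 stromal cells were a larger share of the collagen-expressing stroma in the libraries labelled bleomycin. They were 10.5%, 10.2% and 21.5% of stromal cells in those labelled SARAWT PBS 1 to 3, and 41.6%, 27.9% and 33.2% in SARAWT bleomycin 1 to 3, and the groups did not overlap. The means were 14.1% ± 6.46 (SD, n = 3) and 34.3% ± 6.91 (SD, n = 3), a difference of 20.2 percentage points with p = 0.1 in a two-sided exact permutation test, the smallest p that 3 libraries against 3 can give. In SARATg mice the share was 27.2% with PBS (exact 95% binomial interval 24.0% to 30.6%) and 62.2% with bleomycin (57.2% to 67.0%). These intervals, like all others here, cover counting error only. Stromal cells numbered 742 with PBS and 389 with bleomycin there. Of these, 202 and 242 were Cthrc1 stromal cells, and 217 and 4 were Pi16 stromal cells. The share thus depends on the number of other stromal cells as well. The SARATg PBS share stood above the 3 libraries labelled SARAWT PBS, and the SARATg bleomycin share above every other library. Stromal cells of the SARATg libraries were also the deepest, with medians of 18116.5 and 27213 UMIs against 2240.5 to 16929. With each cell thinned to 1000 UMIs, SARATg bleomycin (12.4%) lay below SARAWT bleomycin 1 (14.1%), and SARATg PBS (8.89%) close to SARAWT PBS 3 (8.31%).

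Taking out the marker cells alone, or thinning the cells to 1000 UMIs, made this difference smaller, and the groups then overlapped. It was 22.5 points where a Pdgfra UMI was required of each stromal cell. With shared barcodes kept only in the library with most UMIs it was 26.3 points without the marker cells and 31.3 points with them. The groups overlapped in the first 2 of these 3 settings (exact permutation p = 0.2 for each) and not in the last (p = 0.1). With the Schwann- and muscle-marker cells taken out of both counts, the shares were 10.8%, 9.71% and 22.3% with PBS and 34.0%, 23.5% and 19.8% with bleomycin, so that the groups overlapped (difference 11.5 points, exact permutation p = 0.2), while the SARATg shares were 28.6% and 63.8%. After each cell was thinned to 1000 UMIs, the shares were 2.23%, 7.69% and 8.31% against 14.1%, 12.3% and 2.89% (difference 3.67 points, exact permutation p = 0.4), with 8.89% in SARATg PBS and 12.4% in SARATg bleomycin. Between 0 and 48 stromal cells per library had under 1000 UMIs and were left out of the thinned shares. After thinning only the Cthrc1 and Pi16 limits were applied anew, and cells stayed stromal by their full-depth collagen I, Ptprc and Pecam1 UMIs. Of all kept skin cells, Cthrc1 stromal cells were 1.25%, 1.41% and 1.40% with PBS and 3.34%, 1.98% and 1.41% with bleomycin in the libraries labelled SARAWT (difference 0.889 points, exact permutation p = 0.2). In the SARATg libraries they were 4.43% and 4.69%. Without the marker cells the difference in this share between the libraries labelled SARAWT was -0.202 points, the opposite direction, and after thinning it was 0.000234 points (exact permutation p = 1).

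**Figure D1:**
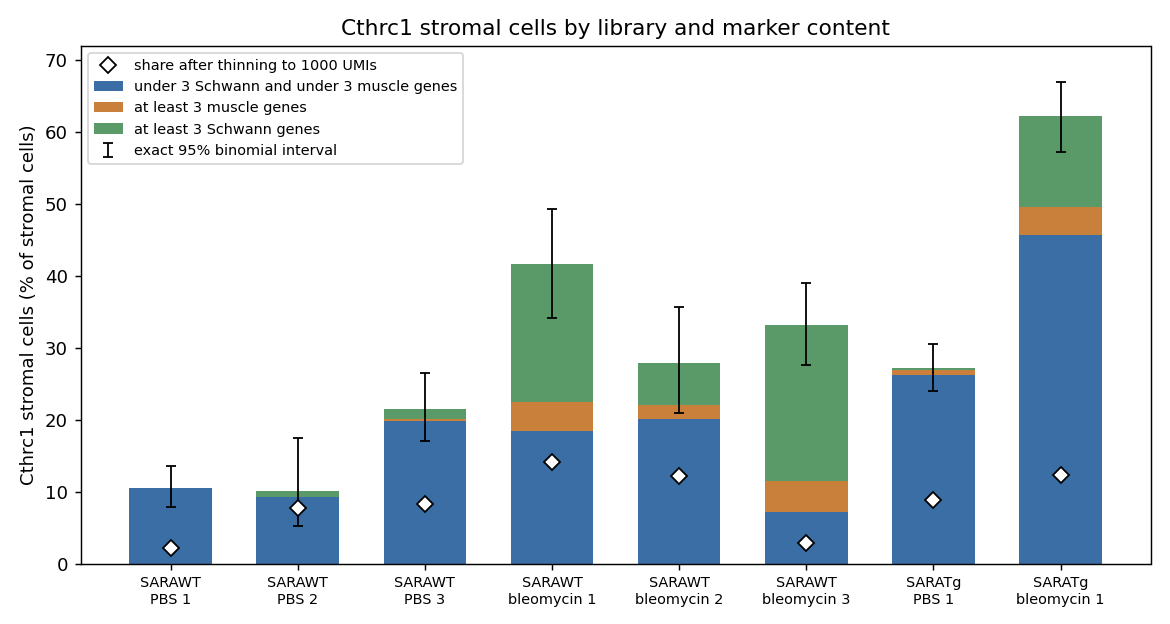
Share of skin stromal cells that are Cthrc1 stromal cells (percent, y axis) in each of the 8 libraries (x axis), with bars stacked by marker content (remaining, Schwann-marker and muscle-marker cells), exact 95% intervals on the whole bar and diamonds for the share after thinning to 1000 UMIs. The whole bars reach 10.2% to 21.5% in the libraries labelled SARAWT PBS and 27.9% to 41.6% in SARAWT bleomycin, where Schwann-marker cells fill 45.8%, 20.9% and 65.2% of the bars, and the SARATg bleomycin bar reaches 62.2%, of which they fill 20.2%.

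UMIs were summed over the Cthrc1 stromal cells of each library, and SARAWT bleomycin was compared with SARAWT PBS by edgeR's quasi-likelihood test over 8797 genes, with Benjamini-Hochberg adjustment and a threshold of 0.05. After bleomycin 90 genes rose and 66 fell, 156 in all or 1.77% of those tested (1.02% higher and 0.75% lower). Among the remaining cells 60 of 7416 genes passed (0.809%), 43 of them higher (0.58%) and 17 lower (0.229%). The remaining cells are part of the same cells, with nearly the same cells in the PBS libraries, so that the fits are not independent. Of the 156 genes 108 could be tested in the remaining cells, and 42 genes passed in both fits. Whether or not called, 14.8% of genes lay higher and 7% lower in every bleomycin library than in every PBS library over all Cthrc1 stromal cells, and 12% and 7.74% in the remaining cells. The number of calls rested on single libraries: it was 4 without SARAWT bleomycin 1, 26 without bleomycin 3 and 43 without bleomycin 2, 352 without the library labelled PBS 1 and 236 without PBS 3. With neither PBS 1 nor PBS 3 it was 4, and with all shared barcodes left out it was 1 of 7774 genes.

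The SARATg pair of libraries, which took no part in these fits, gave the same direction for 150 of the 156 genes (96.2%) and 58 of the 60 (96.7%). Over all genes tested the share with the same direction was 73.0% and 72.3%, and, taken relative to the median gene of the SARATg pair, which was 0.60 higher on the log2 scale with bleomycin, 152 of 156 genes and 58 of 60 genes moved as in SARAWT against 77.0% and 77.7% of all genes tested.

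**Figure D2:**
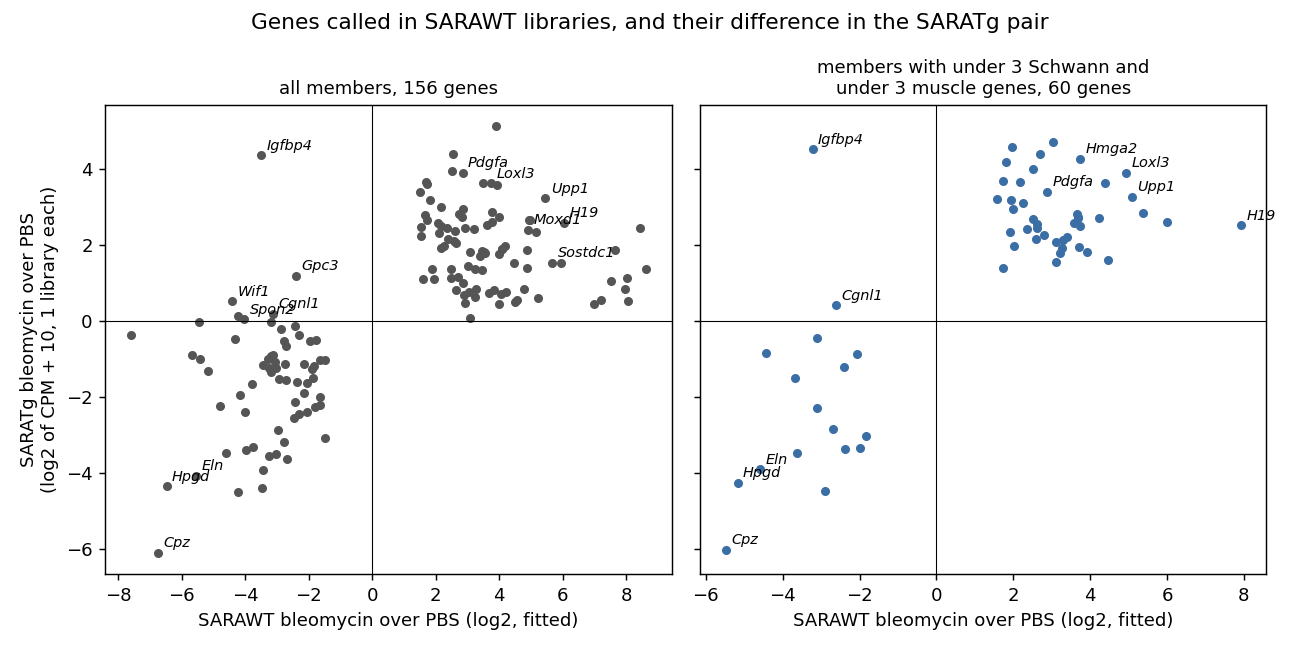
Genes called between SARAWT bleomycin and PBS in all Cthrc1 stromal cells (156 genes) and in the remaining cells (60 genes), with the fitted log2 change in SARAWT on the x axis and the log2 ratio of CPM + 10 between the SARATg bleomycin and PBS libraries on the y axis. Most points lie in the quadrants where both changes have the same sign, 150 of 156 and 58 of 60, and Igfbp4 lies far on the other side.

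H19 and Upp1 were among the named genes that rose. H19 (ENSMUSG00000000031, chromosome 7, 142575529 to 142578143, minus strand) is an imprinted noncoding RNA that is high in the fetus and mostly silent after birth. It had 0.898, 0 and 1.51 CPM in Cthrc1 stromal cells of the libraries labelled SARAWT PBS and 133, 73.4 and 63.5 CPM in SARAWT bleomycin 1 to 3 (log2 change 6.05, SE 0.61, edgeR adjusted p = 0.0067). The groups were far apart, and the SARATg libraries followed with 1.01 CPM with PBS and 56.2 CPM with bleomycin. H19 was carried by a minority of cells, 16.3% to 20.9% in the 4 bleomycin libraries, and by the remaining cells too, with 0.898, 0 and 0 CPM against 222, 64.0 and 132 CPM (log2 change 7.92, SE 0.87, edgeR adjusted p = 0.0099). Upp1, a uridine phosphorylase of pyrimidine salvage, had 1.80, 0 and 0.757 CPM with PBS and 76.4, 52.7 and 50.2 CPM with bleomycin (log2 change 5.45, SE 0.53, adjusted p = 0.0067). Its SARATg values were 0 and 84.8 CPM, and the remaining cells gave 1.80, 0 and 0.809 CPM against 59.2, 41.0 and 42.8 CPM.

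Pdgfa, a ligand of the PDGF receptors, was at 21.6, 96.6 and 35.6 CPM in the libraries labelled SARAWT PBS and 295, 181 and 301 CPM in SARAWT bleomycin (log2 change 2.85, SE 0.46, adjusted p = 0.022), and the remaining cells showed it too, with 21.6, 29.8 and 8.09 CPM against 118, 77.1 and 143 CPM (log2 change 2.89, SE 0.46, adjusted p = 0.032). In SARATg mice Pdgfa was at 1.21 CPM with PBS and 158 CPM with bleomycin. Pdgfrb, the receptor whose promoter marks the sorted lineage, went the other way, from 107, 266 and 181 CPM to 42.0, 28.9 and 20.7 CPM (log2 change -2.47, SE 0.41, adjusted p = 0.024), and from 171 to 20.7 CPM in SARATg. In the remaining cells Pdgfrb gave 107, 328 and 193 CPM against 58.4, 39.4 and 19.8 CPM and missed the threshold (adjusted p = 0.079). Pdgfra itself had 314, 145 and 276 CPM against 118, 138 and 26.0 CPM over all Cthrc1 stromal cells (adjusted p = 0.23) and 314, 179 and 291 CPM against 221, 220 and 93.8 CPM in the remaining cells, where the groups overlapped.

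Of the 16 genes tested in the list of PDGF, IGF and imprinted growth genes, Pdgfa and H19 rose and Pdgfrb, Igfbp4 and Meg3 fell, where 1.77% of all genes tested were called, with a median log2 change of -0.90 over the list against 0.03 over all genes tested. Pdgfa and H19 rose in the remaining cells and Pdgfrl and Igfbp4 fell there. Igfbp4, a binding protein that restrains insulin-like growth factors, went from 2153, 241 and 907 CPM to 49.7, 125 and 130 CPM (log2 change -3.51, SE 0.71, adjusted p = 0.047). The SARATg pair moved the opposite way for this gene, from 12.7 CPM with PBS to 462 CPM with bleomycin. Meg3, an imprinted noncoding RNA, went from 661, 604 and 492 CPM to 141, 209 and 272 CPM (log2 change -1.49, SE 0.30, adjusted p = 0.047), and from 1230 to 599 CPM in SARATg.

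Of 15 genes of microfibrils and elastic fibres tested, Eln, Mfap2 and Fbln1 fell and none rose, where 0.75% of all genes tested fell. Eln (ENSMUSG00000029675, chromosome 5, 134702593 to 134747323, minus strand), which encodes elastin, was at 195, 96.6 and 384 CPM in the libraries labelled SARAWT PBS and at 4.04, 13.4 and 1.76 CPM in SARAWT bleomycin (log2 change -5.54, SE 0.78, edgeR adjusted p = 0.020). The lowest PBS library held several times the level of the highest bleomycin library. In SARATg mice Eln was at 349 CPM with PBS, where 96.0% of the cells had a UMI, and at 11.4 CPM with bleomycin, where 8.68% had one. The remaining cells gave 195, 119 and 406 CPM against 6.01, 21.3 and 6.59 CPM (log2 change -4.59, SE 0.65, adjusted p = 0.021). Mfap2, a microfibril-associated glycoprotein, was at 422, 266 and 233 CPM with PBS and 38.8, 62.0 and 16.7 CPM with bleomycin (log2 change -3.01, SE 0.49, adjusted p = 0.022), and it passed in the remaining cells as well (log2 change -2.39, SE 0.44, adjusted p = 0.044).

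Fbln1, an elastic fibre and basement membrane glycoprotein, was the other called gene of the 15 tested in the microfibril and elastic fibre list, with 58.4, 169 and 134 CPM against 23.0, 21.7 and 22.5 CPM. It missed the threshold in the remaining cells (adjusted p = 0.22). The other 12 genes of the list did not pass, and the median log2 change over the 15 was -0.92. Mfap4 had 243, 0 and 430 CPM against 26.3, 65.1 and 22.0 CPM (adjusted p = 0.11), and its 0 was in the 11 cells of SARAWT PBS 2.

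Collagen I itself, which the rule used and which is therefore described without a test, was high in Cthrc1 stromal cells without bleomycin. Col1a1 was at 16967, 32038 and 40822 CPM in those labelled SARAWT PBS 1 to 3, and at 6518, 6773 and 6449 CPM in SARAWT bleomycin 1 to 3. SARATg PBS had 101650 CPM and SARATg bleomycin 5958 CPM, so that Col1a1 and Col1a2 together took 20.0% of all UMIs in the former and 1.10% in the latter. Cthrc1, also part of the rule, was at 83.5, 700 and 235 CPM against 320, 245 and 123 CPM in the libraries labelled SARAWT and at 301 and 311 CPM in the SARATg libraries. A share as large as 20.0% for 2 genes lowers the CPM of all others in that library.

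None of the 17 collagen genes outside the rule passed, in all Cthrc1 stromal cells or in the remaining cells (list medians -0.51 and -0.74 on the log2 scale). Col3a1 had 6469, 16369 and 17966 CPM against 3067, 3743 and 5379 CPM (adjusted p = 0.075). Col8a1, a short-chain collagen of remodelled tissue, had 19.8, 145 and 108 CPM against 528, 416 and 517 CPM (log2 change 2.61, adjusted p = 0.066) and 1.01 against 367 CPM in SARATg, and Col15a1 had 674, 1376 and 459 CPM against 230, 329 and 357 CPM (adjusted p = 0.096). The basement membrane chain Col4a1 had overlapping values in all Cthrc1 stromal cells, and 935, 238 and 574 CPM against 95.3, 140 and 166 CPM in the remaining cells (adjusted p = 0.064).

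Among 20 collagen maturation enzymes tested, Loxl3 rose, where 1.02% of all genes tested rose (median log2 change over the list 0.21). In the remaining cells 2 of 19 rose, Loxl3 and P4ha3, where 0.58% of all genes tested did. Loxl3 (ENSMUSG00000000693, chromosome 6, 83034173 to 83052562, plus strand), a lysyl oxidase-like enzyme that crosslinks collagen and elastin, was at 1.80, 0 and 9.09 CPM with PBS and 97.0, 110 and 33.5 CPM with bleomycin (log2 change 3.74, SE 0.74, adjusted p = 0.043). It had 0.404 CPM in SARATg PBS and 119 CPM in SARATg bleomycin. In the remaining cells Loxl3 had 1.80, 0 and 6.47 CPM against 165, 153 and 84.0 CPM (log2 change 4.94, SE 0.60, adjusted p = 0.012). There P4ha3, a collagen prolyl hydroxylase subunit, rose as well, from 0.898, 0 and 7.28 CPM to 72.1, 57.4 and 32.9 CPM (log2 change 3.65, SE 0.69, adjusted p = 0.048). Plod2, a lysyl hydroxylase, had 90.7, 48.3 and 31.8 CPM against 98.6, 105 and 127 CPM in SARAWT (adjusted p = 0.29) and 0.202 against 112 CPM in SARATg.

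Matricellular and contractile genes held no call. Of 18 matricellular genes tested none was called (median log2 change -0.45), although Postn had 825, 435 and 1475 CPM against 1757, 1690 and 3037 CPM, without overlap (log2 change 1.13, SE 0.49, adjusted p = 0.28). Without the marker cells Postn had a mean of 794 ± 512 CPM (SD, n = 3) against 788 ± 170 CPM, with overlap. Tnc, tenascin C of wounds, had 32.3, 435 and 238 CPM against 1066, 835 and 1595 CPM (adjusted p = 0.12), and 1 UMI in SARATg PBS against 579 CPM in SARATg bleomycin. Fn1, fibronectin, was at 275, 715 and 765 CPM against 1224, 1482 and 1992 CPM in the remaining cells (adjusted p = 0.17).

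None of the 13 contractile genes tested was called (median log2 change 0.71, and 0.93 over 12 genes in the remaining cells). Acta2, smooth muscle actin of myofibroblasts, varied within the PBS group, with 1377, 362 and 9.09 CPM in the libraries labelled SARAWT PBS 1, 2 and 3 against 904, 1293 and 320 CPM with bleomycin (adjusted p = 0.86). Tagln behaved alike, with 845, 290 and 30.3 CPM against 821, 693 and 351 CPM. SARATg PBS resembled the library labelled SARAWT PBS 3 in these values, with 5.05 CPM of Acta2 and 6.87 CPM of Tagln, against 868 and 403 CPM in SARATg bleomycin. Tpm2, a tropomyosin, had 308, 48.3 and 62.1 CPM against 477, 463 and 313 CPM (adjusted p = 0.25), and 674 CPM in SARATg bleomycin.

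Cpz and Hpgd were among the largest drops. Cpz (chromosome 5, 35502218 to 35525698, minus strand), a carboxypeptidase with a frizzled-like domain that binds WNT proteins, was at 76.4, 386 and 332 CPM in the libraries labelled SARAWT PBS and at 0.808, 2.07 and 3.97 CPM in SARAWT bleomycin (log2 change -6.73, SE 0.79, edgeR adjusted p = 0.011). SARATg had 916 CPM with PBS and 3.45 CPM with bleomycin. Hpgd (chromosome 8, 56294585 to 56321043, plus strand), which degrades prostaglandin E2, was at 233, 24.1 and 177 CPM against 1.62, 1.03 and 2.64 CPM (log2 change -6.47, SE 0.65, adjusted p = 0.0067), and at 246 and 2.56 CPM in SARATg. Both fell in the remaining cells, Cpz with a log2 change of -5.48 (adjusted p = 0.032) and Hpgd with -5.17 (adjusted p = 0.016).

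The value of Hpgd in SARAWT PBS 2 was 1 UMI, which in that library's 41420 UMIs makes 24.1 CPM, and 1 UMI likewise stood behind the values of Cd24a, Fgfr2, Ntrk3 and Spon2 in that library. Ntrk3, a neurotrophin receptor, had the largest fitted drop, from 102, 24.1 and 9.09 CPM to 0.404, 0 and 0 CPM (log2 change -7.59, adjusted p = 0.022), a fitted value that depends on the prior count. Epha4, an ephrin receptor, fell from 69.2, 48.3 and 29.5 CPM to 3.64, 2.07 and 1.32 CPM, and Fgfr2, a fibroblast growth factor receptor, from 79.1, 24.1 and 41.7 CPM to 2.83, 6.20 and 2.64 CPM. Epha4 and Fgfr2 passed in the remaining cells with log2 changes of -3.10 and -3.11 (adjusted p = 0.032 each). Ecm2, Spon2 and Cd24a fell with log2 changes of -4.24, -4.03 and -4.80, and Spon2 stood at 120 and 125 CPM in the SARATg pair. In the remaining cells Ecm2 and Spon2 missed the threshold (edgeR adjusted p = 0.067 and 0.071), and Cd24a and Ntrk3 could not be tested.

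Wif1, a secreted WNT inhibitor, fell from 224, 72.4 and 56.8 CPM to 1.62, 16.5 and 3.53 CPM (log2 change -4.40, SE 0.82, adjusted p = 0.037), and not in SARATg, where it had 1.01 CPM with PBS and 5.90 CPM with bleomycin. Of 16 WNT pathway genes tested, Wif1 was the only one called lower. The only one called higher was Wnt10a, a WNT ligand that was at 0 in all 3 PBS libraries and at 11.3, 9.30 and 13.7 CPM with bleomycin. Over all genes tested 0.75% were called lower and 1.02% higher. The median log2 change over the list was -1.48, with 31.25% of its genes above 0. None of 12 passed in the remaining cells. Of 24 TGF-beta and activin pathway genes none passed (median log2 change -0.30). Inhba, an activin subunit, had a mean of 31.5 ± 18.9 CPM (SD, n = 3) against 40.8 ± 4.99 CPM in SARAWT and 1.41 against 151 CPM in SARATg.

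Some genes that rose over all Cthrc1 stromal cells had lower levels in the remaining cells after bleomycin. Sostdc1, a secreted BMP and WNT antagonist, had 1.80, 0 and 0.757 CPM against 61.4, 52.7 and 96.1 CPM over all Cthrc1 stromal cells (log2 change 5.68, SE 0.55, adjusted p = 0.0067). In the remaining cells it stood at 0 to 1.80 CPM in every library, and in the Schwann-marker cells of SARAWT bleomycin 1, SARAWT bleomycin 3 and SARATg bleomycin at 156, 165 and 124 CPM. The 9 Schwann-marker cells of SARAWT bleomycin 2 were under the minimum of 10 cells. Pdgfb, the PDGF B chain, had 0, 0 and 4.54 CPM against 88.1, 110 and 35.7 CPM over all of them, and 5.15, 9.85 and 11.5 CPM in the remaining cells after bleomycin. Moxd1, a monooxygenase of neural crest derivatives, reached 108, 163 and 183 CPM over all and 19.7, 73.9 and 14.8 CPM in the remaining cells of the same libraries. Sostdc1 and Pdgfb did not reach the minimum for testing in the remaining cells. Moxd1 had 2.70, 29.8 and 0 CPM with PBS in the remaining cells and missed the threshold there (log2 change 4.20, adjusted p = 0.12, against 4.92 over all).

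Other genes called higher over all Cthrc1 stromal cells were held by the remaining cells as well. Sncg, a synuclein, had 4.49, 0 and 1.62 CPM against 106, 259 and 19.8 CPM there (log2 change 5.38, SE 1.03, adjusted p = 0.049), and Tes, a focal adhesion protein, 0.898, 29.8 and 2.43 CPM against 45.5, 36.1 and 54.3 CPM (log2 change 4.24, SE 0.67, adjusted p = 0.032). Hmga2, a chromatin protein of fetal and growing mesenchyme, passed in the remaining cells, where it had 3.59, 59.6 and 12.9 CPM against 170, 130 and 117 CPM (log2 change 3.73, SE 0.63, adjusted p = 0.037), and over all of them it had an adjusted p of 0.057. In SARATg the remaining cells had 0.839 CPM of Hmga2 with PBS and 201 CPM with bleomycin. Grb14 and Enpp1 rose there by 4.47 and 3.68 on the log2 scale (adjusted p = 0.012 and 0.019), and Glipr1 rose too (adjusted p = 0.0099), with Glipr1 at 0 to 1.80 CPM in the PBS libraries and at 49.2 to 74.1 CPM in SARAWT bleomycin. Uchl1 and Arhgap22, also among the largest changes over all, had log2 changes of 4.18 and 4.10 there. In the remaining cells Uchl1 was too low to be tested, and Arhgap22 had an adjusted p of 0.057.

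Kazald1, Rora and Cgnl1 were also among the largest drops in the remaining cells. Rora, a retinoid-related nuclear receptor, had 399, 119 and 240 CPM against 19.7, 57.4 and 49.4 CPM (log2 change -2.69, SE 0.50, adjusted p = 0.047). Kazald1, an IGF-binding protein-related secreted factor, had 113, 89.4 and 142 CPM against 6.87, 19.7 and 24.7 CPM (log2 change -2.91, SE 0.48, adjusted p = 0.034) and 299 against 3.96 CPM in SARATg. Cgnl1, a junction protein, was the exception in SARATg, with 20.4 CPM with PBS and 30.5 CPM with bleomycin.

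**Figure D3:**
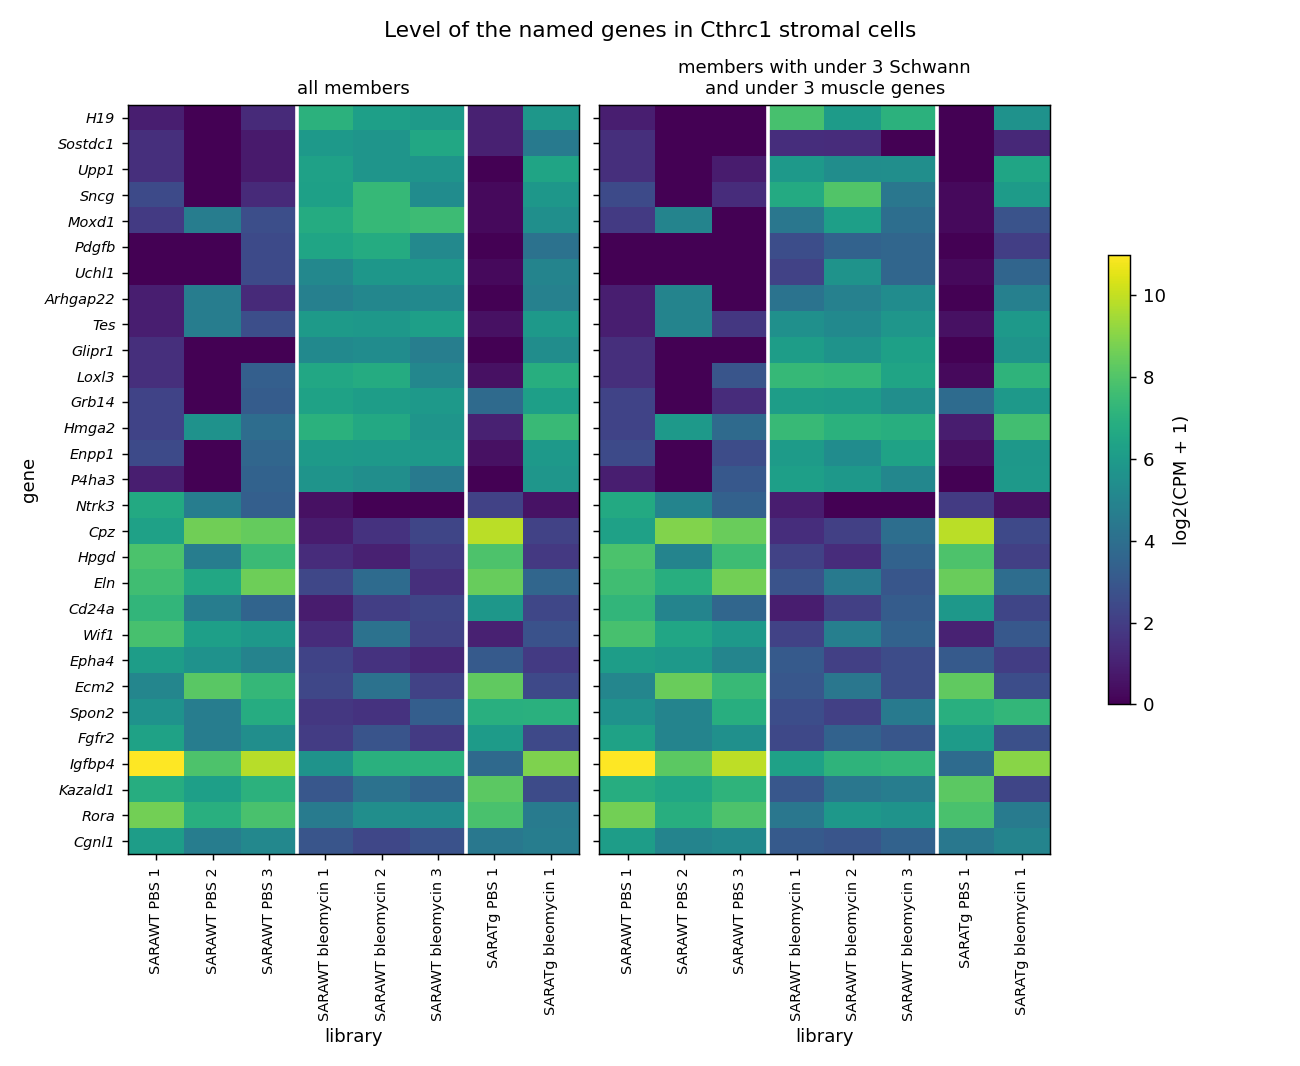
Heat map of log2(CPM + 1) for genes named in the text (rows) in the 8 libraries (columns), for all Cthrc1 stromal cells and for the remaining cells side by side. Eln, Cpz and Hpgd are high in the libraries labelled SARAWT PBS and in SARATg PBS and low in the 4 bleomycin libraries, H19, Upp1 and Loxl3 show the reverse in both panels, and Sostdc1 is at 0 to 1.80 CPM in the remaining cells.

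The other gene groups held few calls, read against the 1.77% called over all genes. In the list of fibroblast genes of the Pi16 type, Anxa3, an annexin, rose from 14.4, 48.3 and 30.3 CPM to 127, 106 and 97.8 CPM (adjusted p = 0.043) and in the remaining cells (adjusted p = 0.049), and Cd55, a complement regulator on fascial progenitors, fell from 111, 48.3 and 94.7 CPM to 5.66, 6.20 and 9.26 CPM (log2 change -3.78, SE 0.38, adjusted p = 0.0067). Cd55 missed the threshold in the remaining cells (log2 change -2.76, edgeR adjusted p = 0.057). The other 9 of 11 tested did not pass, Clec3b among them with 48.5, 917 and 633 CPM against 12.5, 37.2 and 10.6 CPM (adjusted p = 0.052). Ctsk, the collagen-degrading cathepsin K, was the 1 called gene of 16 proteases and inhibitors, from 345, 2028 and 2142 CPM to 131, 219 and 130 CPM (adjusted p = 0.044), and it missed the threshold in the remaining cells (adjusted p = 0.13). Of 20 transcription factors Tbx15, a dermal T-box factor, fell (135, 145 and 60.6 CPM against 15.8, 17.6 and 5.29 CPM), and Scx, a tendon factor, rose with overlapping values (0.898, 24.1 and 2.27 CPM against 17.4, 26.9 and 22.9 CPM). In the remaining cells Tbx15 missed the threshold (edgeR adjusted p = 0.060) and Scx could not be tested.

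None of the 23 cytokine and acute phase genes passed (median log2 change -1.02), with Ccl2 at 689, 15234 and 2030 CPM against 1429, 902 and 725 CPM. The very high Ccl2 came from the 11 cells of SARAWT PBS 2, in all of which the barcode was shared with another library. None of 7 small leucine-rich proteoglycans passed (median -1.77), nor of 20 proliferation genes (0.38), 16 p53 targets (-0.05) or 13 immediate early and heat shock genes (-1.001, with 0 of the 13 above 0). Dcn, decorin, had 1313, 16079 and 8154 CPM against 1682, 4693 and 1052 CPM (adjusted p = 0.32). Of the 7 Schwann genes tested none passed either (median 1.76), and the summed Schwann list stood at 797 CPM in SARAWT PBS 2, with 1 Schwann-marker cell among 11, which lay within the 424 to 1012 CPM of SARAWT bleomycin.

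In the marker lists for other cell types, few genes could be tested, and 1 of 4 mural genes (Nes, higher), 1 of 4 muscle genes (Myf5, higher), 1 of 1 melanocyte gene (Mitf, lower), 1 of 2 follicle genes (Wif1, lower) and 2 of 3 tendon genes (Scx higher, Tnmd lower) passed, against 1.77% of all genes. None of the mural, melanocyte, follicle and tendon genes tested in the remaining cells passed there, where at most 3 of a list could be tested. Nes, an intermediate filament of progenitors that Schwann cells also express, had 18.9, 24.1 and 3.79 CPM against 187, 155 and 210 CPM (log2 change 3.95, SE 0.52, adjusted p = 0.016), and in the remaining cells 18.9, 0 and 2.43 CPM against 30.0, 68.9 and 39.5 CPM (adjusted p = 0.20). Tnmd, tenomodulin, had 275, 0 and 161 CPM against 12.1, 10.3 and 7.49 CPM, with 239 and 54.6 CPM in SARATg. Crabp1, a retinoic acid-binding protein of the follicle papilla and of fetal dermis, had 27.0, 447 and 17.0 CPM against 1379, 809 and 667 CPM in the remaining cells (log2 change 3.71, SE 1.05, adjusted p = 0.16) and 13.2 against 911 CPM in SARATg.

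Between the 2 SARATg libraries, which allow no test, 3408 of 9546 genes with at least 50 UMIs in the higher library were at least 2-fold higher with bleomycin (35.7%) and 906 at least 2-fold lower (9.49%). Relative to the median gene of 0.60 on the log2 scale the counts were 1889 higher and 1785 lower. By size the highest were Igkc, Tnc, Igha, Ptn, Plod2, Jchain, Anln and Dlk1, and the lowest Serpina3c, Prkcb, Mlana, Cyp2f2, C7, Cpz, Creb3l3 and Wfdc12. Ptn, the heparin-binding growth factor pleiotrophin, had 3 UMIs (0.606 CPM, exact 95% Poisson interval 0.125 to 1.77) against 502 CPM (488 to 517). Dlk1, an imprinted NOTCH-like protein of fetal mesenchyme, had 0 UMIs in the 202 cells of SARATg PBS, where 3 UMIs would make 0.606 CPM, against 314 CPM (302 to 326) in SARATg bleomycin, where 47.5% of the cells had one. In the SARAWT libraries Dlk1 stayed between 0 and 15.9 CPM, with and without bleomycin. Cyp2f2, a cytochrome P450, was at 313 CPM with PBS and 1.11 CPM with bleomycin, Serpina3c at 143 and 0.223 CPM, and Creb3l3, a membrane-bound transcription factor, at 106 and 0.445 CPM.

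Of these, Creb3l3, like Cpz, was also called lower in the libraries labelled SARAWT, from 18.9, 48.3 and 31.1 CPM to 0.808, 2.07 and 0.881 CPM (log2 change -4.59, SE 0.56, adjusted p = 0.011). C7 and Wfdc12 were at 0 UMIs in SARATg bleomycin and at 90.7 and 76.8 CPM in SARATg PBS. The immunoglobulin genes Igkc, Igha and Jchain, with 1639, 991 and 333 CPM in SARATg bleomycin, came from a single cell, which held 99.7%, 99.6% and 99.5% of their UMIs.

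Against the other stromal cells the values are a description, since the cells were separated on their own UMIs. In each of the 6 libraries with at least 10 cells of both kinds, 3.06% of 6497 genes were higher in Cthrc1 stromal cells than in Pi16 stromal cells and 9.17% lower, each in every library. Among the largest median differences, as log2 ratios of CPM + 10, were those of Ptn (2.53), Lrrc15 (1.98) and Tagln (1.97), followed by Olfml2a, Acta2 (1.65), Rgs16, Acot7, Fkbp11 and Tpm2. Lrrc15 marks activated fibroblasts, and Acta2, Tagln and Tpm2 are contractile. In SARATg PBS, which is among these libraries, Ptn, Acta2 and Tagln were at the low levels given above. The Pi16 stromal cells of SARAWT bleomycin 1 and 2 were 11 and 23 cells with medians of 1302 and 1789 UMIs. The comparisons with other stromal cells were not run without the Schwann- and muscle-marker cells. On the other side stood Cilp (-4.08), the complement component C3 (-3.90), Tnxb (-3.12), 1 of several entries of Ccl19 (-3.00), Sod3, Hmcn2, Pcsk6, Clec3b, Angptl1 and Cyp2f2, among them matrix and secreted genes of the fascia and adventitia.

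Against stromal cells with neither gene the ranges were smaller, with 2.18% of 6522 genes higher and 7.33% lower in all 8 libraries. The higher genes included Fn1 (median log2 ratio 0.87), the collagen and secretory pathway genes Fkbp11 (0.84), P4ha2 (0.62), Loxl1 (0.64), Txndc5 (0.59) and Sec61b (0.57), and Timp1, Ptgs2, Glipr2 and Il1rl1 (1.15). The lower genes were Apoe (-2.25), the glial genes Mbp (-1.94), Kcna1 and Mal, and Cyp26b1, Spon1, Col23a1, Bmp4, Ifitm1 and Serpine2. The cells with neither gene were shallower, with medians given above.

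**Figure D4:**
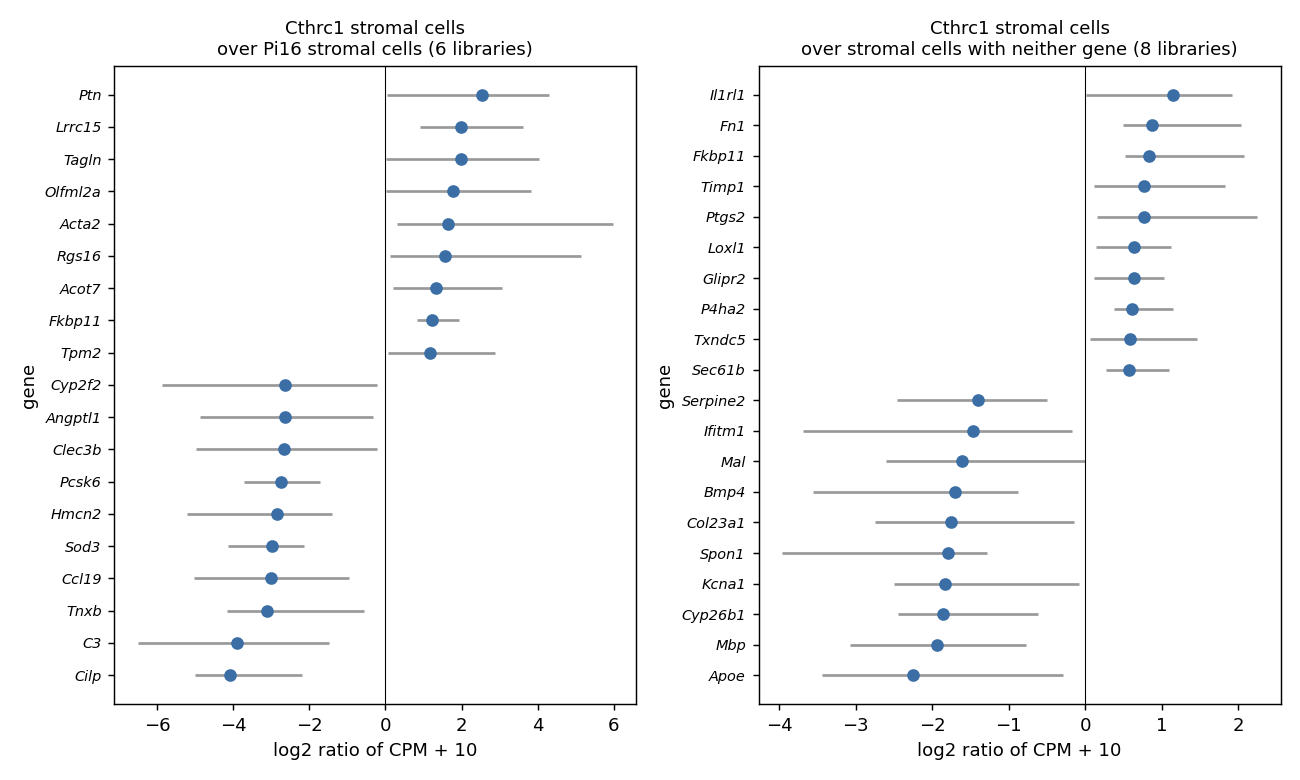
Median (point) and range over libraries (line) of the log2 ratio of CPM + 10 between Cthrc1 stromal cells and Pi16 stromal cells (6 libraries) or stromal cells with neither gene (8 libraries), for named genes among the 10 with the largest median in each direction (y axis). Ptn reaches a median of 2.53 over Pi16 stromal cells and Cilp -4.08, whereas the medians over cells with neither gene stay between -2.25 and 1.15.

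The bleomycin effect was also compared between Cthrc1 and Pi16 stromal cells by an interaction term in edgeR, with the library as a block, over 9485 genes. SARAWT bleomycin 3, with 7 Pi16 stromal cells, was left out, so that 3 libraries stood against 2. The Pi16 stromal cells of SARAWT bleomycin 1 and 2 were 11 and 23 cells with medians of 1302 and 1789 UMIs, against medians of 11660.5 to 14859.5 UMIs with PBS, and 3 and 11 cells were left where a shared barcode was kept only in the library with most UMIs. The effect differed for 61 genes (0.643%), 14 more positive in Cthrc1 stromal cells (0.148%) and 47 more negative (0.496%), and the median over all genes was 0.22. Without the Schwann- and muscle-marker cells 33 genes passed, and with shared barcodes kept only in the library with most UMIs none of 10298 did (edgeR, 762 at an unadjusted p under 0.05). Without SARAWT PBS 2 the number was 5, without the library labelled PBS 1 it was 149 and without PBS 3 it was 138. Without SARAWT bleomycin 1 it was 25, and without bleomycin 2 it was 18.

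Cpz and 3 of 15 microfibril and elastic fibre genes differed, where 0.643% of all genes tested did. Cpz was at 117, 192 and 192 CPM in Pi16 stromal cells of the libraries labelled SARAWT PBS 1 to 3 and at 179 and 277 CPM in SARAWT bleomycin 1 and 2, against the near loss in Cthrc1 stromal cells (difference -7.42 on the log2 scale, SE 0.76, edgeR adjusted p = 3.4e-06). Eln in Pi16 stromal cells had 724, 719 and 324 CPM with PBS and 566 and 1092 CPM with bleomycin, and Eln, Mfap2 and Fbln5 were the genes of that list called, all more negative. H19 showed the largest positive difference, with 31.5, 30.2 and 1.33 CPM in Pi16 stromal cells with PBS and 0 CPM in both bleomycin libraries (adjusted p = 0.0012). In the cells with neither gene, H19 had 1.82, 0 and 1.05 CPM with PBS and 95.1, 157 and 53.9 CPM in SARAWT bleomycin 1 to 3. The bleomycin libraries thus lay above the PBS libraries in those cells too, without a test. Eln had 144, 124 and 280 CPM against 26.9, 131 and 43.8 CPM there, with overlap.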

How the data were processed

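Droplet libraries (10x Genomics, 3′ chemistry) were made from sorted GFP+ skin cells. The deposited matrices hold counts, as UMIs per gene and barcode, that the authors made with Cell Ranger 3.0.2 against mm10, per the labels and the submitters' processing notes, which also name Seurat 2.3.4. SARAWT PBS 1 and 2 and SARAWT bleomycin 1 and 2 use a longer gene list (32286 entries) than the other 4 libraries (31053); the 30406 shared genes were used, and 597 of them differ in symbol between the lists. Gene positions are from GENCODE vM21 (GRCm38).

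Counts were summed per library over the Cthrc1 stromal cells, with at least 10 cells, and CPM were taken over that sum. SARAWT groups were compared over these 6 libraries in R 4.3.3, by the quasi-likelihood test of edgeR 4.0.16 after its filterByExpr and TMM steps, with Benjamini-Hochberg adjustment over all genes tested. The SE was approximated as the size of the log2 change over the square root of F. Shares were compared by two-sided exact permutation tests (scipy 1.17.1). Doublets were predicted with scanpy 1.11.5 at 0.8% per 1000 cells and kept. Scripts were tested on simulated data. Named genes were the 10 with the largest change in each direction among called genes whose groups did not overlap and whose mean over the fitted libraries was 20 CPM or more, mitochondrial and ribosomal protein genes left out (5 per direction for the interaction, 8 by fold for SARATg, 10 by median ratio between cell classes), and members of the gene lists. The genes used by the rule were given no test. The cells, lists and tests were chosen with earlier results of these data known. Alternatives included DESeq2 1.42.0, other cell limits, left-out libraries and shared barcodes. A few genes that met these rules are not reported here.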

Additional observations from a re-analysis of the deposited data

Results flagged for a closer look

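For 10 genes the bleomycin effect differed between Cthrc1 and Pi16 stromal cells by the interaction test, in log2 units of the effect in Cthrc1 minus that in Pi16 stromal cells. The difference was 12.91 for H19, 11.15 for Chrdl1, 10.35 for Sfrp2, 9.22 for Rai14 and 5.00 for Cxcl14. It was -7.92 for Ctla2a, -7.42 for Cpz, -7.25 for Ppp2r2c, -6.54 for Cyp4b1 and -6.21 for Lamc3. H19, Chrdl1, Sfrp2 and Rai14 had 0 UMIs in the Pi16 stromal cells of both bleomycin libraries, and Ppp2r2c in the Cthrc1 stromal cells of both, so that these fitted values depend on the prior count. Cxcl14 was at 14.9 and 5.43 CPM in the Pi16 stromal cells of SARAWT bleomycin 1 and 2, the lowest values above 0 among these 10 genes there. Lamc3 and Cyp4b1 were at 0 and 1.03 CPM in the Cthrc1 stromal cells of these libraries. The fitted values of Cxcl14, Lamc3 and Cyp4b1 thus rest on few UMIs as well. Ctla2a reached 1384 CPM in the library labelled SARAWT PBS 3 and 0 CPM in the libraries labelled PBS 1 and PBS 2.

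Of the 66 genes called lower after bleomycin in the libraries labelled SARAWT, 60 were lower in the SARATg pair too and 6 had the opposite sign. Of these 6, 3 differed in the SARATg pair by at least 1 in the log2 ratio of CPM with nothing added. This difference between the libraries labelled SARAWT and SARATg was not tested, and the labels of PBS 1 and PBS 3 are in doubt. On that scale the SARATg ratio of bleomycin over PBS was 1.62 for Gpc3, 5.18 for Igfbp4 and 2.55 for Wif1. As log2 ratios of CPM + 10 the values were 1.20 for Gpc3, 4.38 for Igfbp4 and 0.53 for Wif1, and 0.20, 0.14 and 0.05 for the other 3 genes, Cgnl1, Prdm1 and Spon2.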

How the results depend on the processing

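The share of stromal cells kept its direction under every alternative run, with differences from 3.67 points (thinned) to 31.3 points (shared barcodes kept only in the library with most UMIs), and 16.5 to 23.9 points leaving out 1 library. The share of kept cells reversed without Schwann- or muscle-marker cells (-0.202 points) and with Pdgfra required (-0.164 points), was 0.000234 points after thinning, and was 0.340 to 1.31 points leaving out 1 library. Against 156 genes called, other settings called in all 278 (DESeq2), 961 (no filter on low counts), 4 (without both PBS 1 and PBS 3), 96 (2 or more Cthrc1 UMIs), 1 (without shared barcodes), 60 (without marker cells), 11 (that, with shared barcodes kept once), 5 (Pdgfra required) and 4 to 352 (leaving out 1 library). Against 61 interaction genes they called 134 (no filter), 6 (strict cell filter), 6 (2 or more Cthrc1 UMIs), 96 (no predicted doublets), 33 (without marker cells) and 5 to 149 (leaving out 1 library). By edgeR 0 interaction genes passed with 20 or more collagen I UMIs (740 at an unadjusted p under 0.05), without shared barcodes (539), with shared barcodes kept once (762; 727 also without marker cells) and with Pdgfra required (650). The causes were not tested. Among the 20 genes named from all Cthrc1 stromal cells and the 10 from the interaction, none reversed in the settings where it could be fitted. Many were weaker, however. Of the 20, 18 were weaker without both PBS 1 and PBS 3, 17 without shared barcodes and 16 without SARAWT bleomycin 1, while all 20 were the same with DESeq2. Of the 10, all were weaker without shared barcodes and 9 without SARAWT PBS 2, while all 10 were the same without predicted doublets. The other named genes were not run under these settings. The fit with the replicate block called 205 genes. For both shares the block gave p = 0.25 in an exact permutation test, the smallest two-sided p that 3 pairs can give. Correlations of deviations from the group means were 0.104, 0.0318 and 0.174 for same-numbered libraries and -0.216 to 0.056 for the others. Replicates 1 and 2 of both SARAWT groups use the longer gene list and replicate 3 of both the shorter. Whether the replicate numbers pair the libraries is not settled here. The 41420 UMIs of SARAWT PBS 2 limit its values, where 1 UMI makes 24.1 CPM.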

Other observations

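Of the genes called higher in the remaining cells (0.58% of 7416), 5 encode enzymes of glycolysis; they were picked after their values were seen, and nothing was tested about the pathway. Eno1, enolase, had 107, 59.6 and 61.5 CPM in the libraries labelled SARAWT PBS and 671, 405 and 453 CPM in SARAWT bleomycin (log2 change 2.69, SE 0.37, edgeR adjusted p = 0.019). Gapdh, Pgk1, Pkm and Tpi1 rose by 1.74, 1.93, 1.58 and 2.18 on the log2 scale (edgeR adjusted p = 0.032, 0.047, 0.046 and 0.042), and Ldha and Aldoa missed the threshold (edgeR adjusted p = 0.061 and 0.052). In SARATg mice Eno1 had 25.2 CPM with PBS and 729 CPM with bleomycin, and Gapdh 213 and 2891 CPM.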
